A study of Mus musculus with 12 samples.

Results

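The genes described here are 7 genes of cholesterol synthesis and its control, the entries for *Srebf2*, *Insig1*, *Hmgcs1*, *Idi1*, *Fdps*, *Sqle* and *Lss*, taken by symbol out of 45777 genes counted in 12 mouse livers. All 7 were found and all 7 passed the filter on low counts in each of 6 comparisons. None of them encodes a protein that itself takes up LDL, so the values concern synthesis and its regulators. The mice were male C57BL/6 animals, 3 per group: wild type (WT) given vehicle, WT given acetaminophen (APAP), and mice labelled Gα12-/- (*Gna12* KO) given vehicle or APAP. APAP, a painkiller that injures hepatocytes at high dose, was given once by intraperitoneal injection at 300 mg/kg after an overnight fast, and livers were taken at 6 h. Ages are 10 to 12 weeks by the labels, and the study's methods state 8 to 12 weeks. *Gna12*, which encodes a G protein alpha subunit, is the gene named as deleted.

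Cholesterol is built from acetyl-CoA through mevalonate, isoprenoid diphosphates, squalene and lanosterol, and the liver is a main site of this synthesis. The transcription factor SREBP2, the product of *Srebf2*, switches on the genes of the pathway when sterols in the endoplasmic reticulum fall. INSIG proteins, with INSIG1 itself under SREBP control, hold the precursor of SREBP2 in the endoplasmic reticulum when sterols are plentiful.

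Between 49737950 and 69566079 reads were counted per liver, and the 6 hepatocyte markers examined were present in all 12. *Gna12* was not lower under the KO label: it ranged from 34.8 to 66.7 CPM (read counts scaled to library size by the TMM method) in WT vehicle livers and from 54.6 to 67.2 CPM in KO-labelled vehicle livers, so the label is used below as a label only. A count over the whole gene does not show whether a part of it is missing. The study separately describes PCR on tail DNA and quantitative PCR of *Gna12* RNA in liver, for KO mice and WT littermates. The liver WT APAP 1 stood apart, with 238212 counts of the haemoglobin gene *Hba-a1* against 2551 to 7713 in the other 11 livers and with the lowest TMM factor, 0.75. Where a call or a fold change with APAP of the genes described rests on it, the value without it is also given.

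APAP against vehicle asked what the drug did to these transcripts. Over all 12 livers, with the genotype label as a covariate, *Sqle* and *Hmgcs1* rose, and the remaining 5 genes did not pass the test (edgeR quasi-likelihood test, Benjamini-Hochberg adjusted p under 0.05 over all 16509 genes tested). *Sqle* rose 3.24-fold and *Hmgcs1* 2.23-fold. Of all genes tested, 25.4% were called, 14% higher and 11.4% lower, so 2 of 7 was near the share called in either direction. All 7 fold changes were above 0 on the log2 scale, from 0.03 to 1.70, with a median of 0.49 against 0.01 over all genes tested. Without KO APAP 3 *Srebf2* was below 0, at -0.10, and without WT APAP 1 the median was 0.34. In bulk liver, a change in the number of cells of a type and a change in RNA per cell cannot be told apart. In CPM, none of the 7 had APAP livers wholly apart from vehicle livers when the 12 were pooled, which was the case for 12.5% of all genes. On the length-scaled measure described below, *Sqle* did have its APAP livers wholly above its vehicle livers. Leaving out WT APAP 2 raised the number called to 4, adding *Idi1* and *Lss*, and leaving out WT APAP 1 left it at 2.

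**Figure D1:**
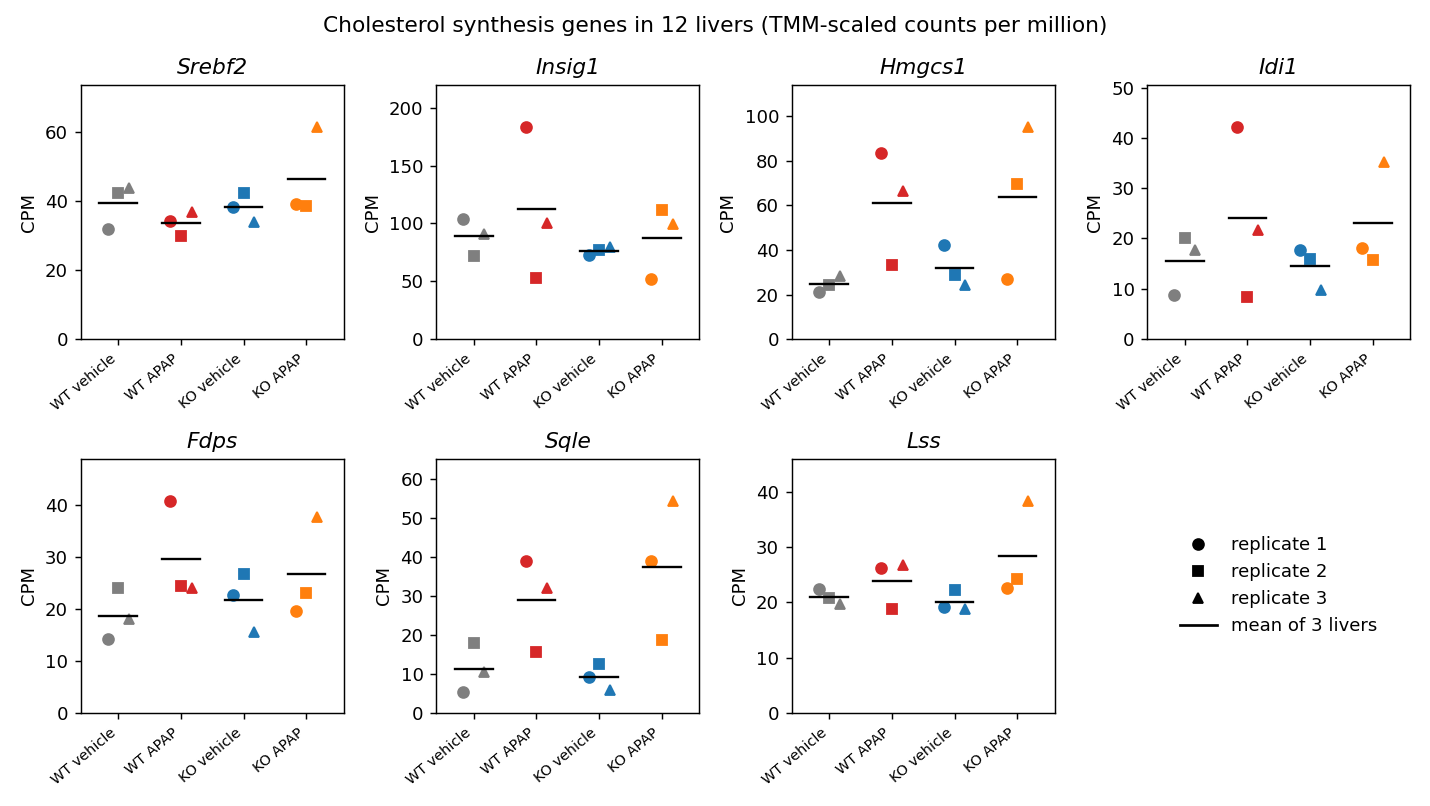
Levels of the 7 genes in each of the 12 livers, in TMM-scaled CPM on linear axes that start at 0. Each point is a liver, its shape gives the replicate number, and the line is the mean of 3 livers. *Sqle* and *Hmgcs1* have higher means after APAP under both labels, and WT APAP 1 and KO APAP 3 are the highest points of several panels.

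Levels can be compared between genes only per transcript length, here as TPM, in which reads are divided by transcript length and brought to the same sum in each library. By mean TPM over the 12 livers, vehicle and APAP together, *Insig1* was the most abundant at 54.7, followed by *Fdps* at 30.2, *Hmgcs1* at 21.2, *Sqle* at 13.1, *Srebf2* at 12.9, *Idi1* at 10.7 and *Lss* at 6.35. In vehicle livers alone the order differed: *Sqle* had mean levels of 6.18 TPM in WT and 5.68 TPM under the KO label, below *Srebf2* at 12.0 and 12.6 TPM and *Idi1* at 8.32 and 8.64 TPM. The ranges of all neighbouring genes in this order overlapped, as in *Insig1* at 37.4 to 77.03 TPM and *Fdps* at 15.7 to 55.4 TPM. *Sqle* varied most between livers, with 10.3-fold between its highest and lowest CPM, against 2.05-fold for *Lss* and 2.06-fold for *Srebf2*.

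*Srebf2* (chr15:82147269-82205379, mm10) encodes the SREBP2 precursor. It stood at 31.9, 42.3 and 43.6 CPM in WT vehicle livers 1 to 3 and at 34.0, 29.7 and 36.8 CPM in WT APAP livers 1 to 3. In KO-labelled livers it stood at 38.2, 42.3 and 33.9 CPM with vehicle and at 38.9, 38.6 and 61.2 CPM after APAP. KO APAP 3 was the highest of the 12 livers, and the other 11 ran from 29.7 to 43.6 CPM. With APAP the log2 fold change was 0.03 ± 0.15 (SE, n = 12 livers, edgeR adjusted p = 0.922) over all livers, -0.22 ± 0.18 in WT and 0.29 ± 0.20 under the KO label. Without KO APAP 3 the value under the KO label was 0.036. *Srebf2* holds the microRNA gene *Mir33* in its locus, which had 0 counts in all 12 libraries.

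*Insig1* (chr5:28071412-28078662) encodes the endoplasmic reticulum protein that retains the SREBP precursor. It stood at 103, 72.2 and 90.7 CPM in WT vehicle livers 1 to 3 and at 183, 53.1 and 100.01 CPM in WT APAP livers 1 to 3. Under the KO label it stood at 73.0, 76.7 and 79.2 CPM with vehicle and at 51.7, 111 and 99.1 CPM after APAP. In both labels the APAP livers lay on both sides of the vehicle livers, and the lowest of all 12 was KO APAP 1. APAP changed it by 0.27 ± 0.26 on the log2 scale over all livers (edgeR adjusted p = 0.494), and by 0.022 without WT APAP 1. In WT it was 0.35, and -0.21 without WT APAP 1.

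Promoters are shown for *Hmgcs1*, which rose, for *Srebf2*, the gene of the factor, which did not pass the test, and for *Idi1*, which did not pass it either. The windows run from 250 bases before to 50 after the RefSeq start on the plus strand of GRCm38.p6, which has the same coordinates as mm10. Capitals mark 3 motifs searched on both strands: the sterol regulatory element TCACNCCAC, the NF-Y box CCAAT and the Sp1 box GGGCGG, the last 2 being sites of factors known to work beside SREBPs. The windows are *Hmgcs1* at chr13:119690101-119690400, *Srebf2* at chr15:82147019-82147318 and *Idi1* at chr13:8885356-8885655.
Hmgcs1: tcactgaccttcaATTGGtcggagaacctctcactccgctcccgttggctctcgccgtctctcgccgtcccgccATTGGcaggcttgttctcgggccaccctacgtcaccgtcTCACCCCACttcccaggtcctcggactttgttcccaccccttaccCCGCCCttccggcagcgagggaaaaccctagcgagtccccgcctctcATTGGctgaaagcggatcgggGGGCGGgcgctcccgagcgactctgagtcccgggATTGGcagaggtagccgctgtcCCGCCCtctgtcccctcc
Srebf2: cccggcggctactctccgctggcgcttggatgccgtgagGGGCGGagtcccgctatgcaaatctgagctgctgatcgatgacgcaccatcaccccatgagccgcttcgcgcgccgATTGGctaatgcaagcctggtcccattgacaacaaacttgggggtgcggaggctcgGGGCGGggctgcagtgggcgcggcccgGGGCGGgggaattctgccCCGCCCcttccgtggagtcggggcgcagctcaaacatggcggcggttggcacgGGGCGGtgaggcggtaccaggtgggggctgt
Idi1: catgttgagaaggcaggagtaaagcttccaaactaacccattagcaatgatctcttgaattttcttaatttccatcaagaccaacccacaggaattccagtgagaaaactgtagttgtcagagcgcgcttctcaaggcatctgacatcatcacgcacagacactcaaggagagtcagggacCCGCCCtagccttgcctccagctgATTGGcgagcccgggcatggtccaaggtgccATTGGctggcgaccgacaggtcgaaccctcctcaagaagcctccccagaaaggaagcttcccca
Windows were matched for 5 of the 7 genes, these 3 and those of *Insig1* and *Lss*. The sterol regulatory element was matched in 1 of 5, in *Hmgcs1* at 137 bases before the start, as TCACCCCAC, and 1.24% of 32851 mouse promoter windows held it. The NF-Y box was matched in 5 of 5 windows, with 4 copies in *Hmgcs1*, against 37.4% of all windows. The Sp1 box was also matched in 5 of 5, with 5 copies in *Srebf2*, against 35.7% of all windows. Among 17 windows of 14 other enzyme genes of the pathway, 0 held the sterol regulatory element, 13 the NF-Y box and 13 the Sp1 box. A match is a run of letters, and no binding was measured here. Only exact matches were counted, so a window without one can still hold a variant of the element.

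*Hmgcs1* (chr13:119690351-119708260) encodes the cytosolic HMG-CoA synthase, an early enzyme of the pathway. It stood at 21.2, 24.2 and 28.3 CPM in WT vehicle livers 1 to 3 and at 83.4, 33.0 and 66.4 CPM in WT APAP livers 1 to 3. The 3 WT APAP livers were all above the 3 WT vehicle livers. KO-labelled livers had 42.3, 28.9 and 24.5 CPM with vehicle and 27.1, 69.7 and 95.1 CPM after APAP. Here KO APAP 1 lay among the vehicle livers, and the other two APAP livers lay above them. The log2 fold change was 1.16 ± 0.29 over all livers (edgeR adjusted p = 0.0107). Alone, WT gave 1.32 ± 0.33 (adjusted p = 0.0908) and the KO label 1.01 ± 0.41 (adjusted p = 0.110), neither of which passed with edgeR. Without WT APAP 1 the value in WT was 1.02, and without KO APAP 3 the value under the KO label was 0.61. DESeq2's Wald test called *Hmgcs1* in both, at an adjusted p of 0.00591 in WT and 0.0274 under the KO label. The call over all livers held with each of the 12 libraries left out in turn, at adjusted p-values of 0.00174 to 0.0339. The annotated gene *Gm48342* is 100% identical to *Hmgcs1* over 462 aligned bases and had no entry among the counted genes.

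*Idi1* (chr13:8885606-8892396) encodes isopentenyl-diphosphate isomerase, which interconverts the isoprenoid building blocks. It stood at 8.82, 20.2 and 17.6 CPM in WT vehicle livers 1 to 3 and at 42.1, 8.34 and 21.6 CPM in WT APAP livers 1 to 3. In KO-labelled livers it was at 17.8, 15.9 and 9.70 CPM with vehicle and at 18.2, 15.6 and 35.1 CPM after APAP. The groups overlapped under both labels, and in WT the APAP livers held both the highest and the lowest value of the 12. Over all livers the log2 fold change was 0.65 ± 0.35 (edgeR adjusted p = 0.199), and 0.36 without WT APAP 1. In WT it was 0.64, and -0.05 without WT APAP 1. Under the KO label it was 0.68, and 0.24 without KO APAP 3.

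The counts of *Idi1* are uncertain, because a processed copy, the pseudogene *Gm35570*, shares 97.7% of 681 aligned bases with it and was counted as a gene of its own. *Gm35570* took from 3.9% to 54.9% of the counts of the pair. The share was 54.9% in WT APAP 2, with 763 of 1391 counts, 3.9% in WT APAP 1, with 86 of 2206, and 7.9% in KO APAP 3, with 212 of 2682. In the 6 vehicle livers the share ran from 26.5% to 43.9%. The liver with the lowest *Idi1* level, WT APAP 2, had the highest share on the copy, and the livers with the highest *Idi1* levels had the lowest shares. Because *Idi1* counts are part of the sum, the share falls as they rise, so this order is partly fixed in advance. With both entries added, WT APAP 2 was at 18.5 CPM, within the vehicle range of 14.7 to 27.5 CPM. The log2 fold change of the sum was 0.35 ± 0.23 over all livers (edgeR adjusted p = 0.299), against 0.65 for *Idi1* alone. How the reads of the pair were divided between the entries was not tested. *Gm13502* and *Gm48574*, 100% identical to *Idi1* over 684 and 323 aligned bases, had no entry among the counted genes.

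**Figure D2:**
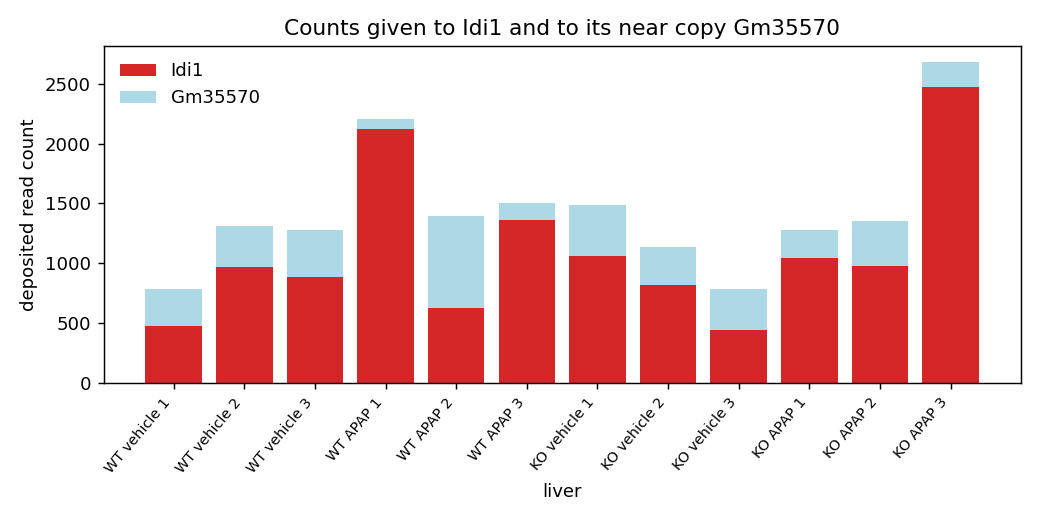
Deposited read counts of *Idi1* (red) and of its near copy *Gm35570* (blue), stacked for each of the 12 livers on a linear axis that starts at 0. The copy holds 763 of 1391 counts in WT APAP 2 and 86 of 2206 in WT APAP 1.

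*Fdps* (chr3:89093588-89101967) encodes farnesyl diphosphate synthase, at the branch from which sterols, dolichol and prenylated proteins are made. It stood at 14.2, 24.0 and 18.0 CPM in WT vehicle livers 1 to 3 and at 40.8, 24.4 and 24.0 CPM in WT APAP livers 1 to 3. KO-labelled livers had 22.7, 26.8 and 15.6 CPM with vehicle and 19.6, 23.0 and 37.8 CPM after APAP. In CPM the WT groups touched, with the lowest APAP liver barely above the highest vehicle liver, and the KO-labelled groups overlapped. In TPM the WT groups lay further apart, at 18.5 to 26.6 with vehicle and 30.0 to 34.0 after APAP, and the KO-labelled groups again overlapped. On the log2 scale APAP changed *Fdps* by 0.49 ± 0.22 over all livers (edgeR adjusted p = 0.119), 0.68 ± 0.28 in WT (adjusted p = 0.266) and 0.32 ± 0.27 under the KO label (adjusted p = 0.438). Without WT APAP 1 the value was 0.34 over all livers and 0.37 in WT, and without KO APAP 3 the value under the KO label was -0.01. *Fdps* has 7 near copies in the annotation, of which *Gm3571*, 98.9% identical over 1062 bases, had at most 29 counts in a library. Another, *Gm43738*, is 100% identical over 929 bases and had no entry among the counted genes.

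*Sqle* (chr15:59315092-59331193) encodes squalene epoxidase, which makes the first oxygenated intermediate after squalene. It stood at 5.29, 17.8 and 10.4 CPM in WT vehicle livers 1 to 3 and at 39.0, 15.7 and 32.1 CPM in WT APAP livers 1 to 3. In CPM, WT APAP 2 was below WT vehicle 2, and the other 2 WT APAP livers were above all 3 vehicle livers. In KO-labelled livers it was at 9.22, 12.4 and 5.99 CPM with vehicle and at 38.9, 18.7 and 54.4 CPM after APAP. These groups did not overlap. In TPM, the vehicle livers of both labels ran from 2.91 (KO vehicle 3) to 9.45 (WT vehicle 2). The APAP livers ran from 10.7 (WT APAP 2) to 37.5 (KO APAP 3) TPM. On that scale the *Sqle* groups overlapped neither in WT nor when pooled. For *Sqle* the log2 fold change was 1.70 ± 0.35 over all livers (edgeR adjusted p = 0.00383) and 2.03 ± 0.39 under the KO label (adjusted p = 0.00931), and both calls held with each library left out. In WT it was 1.38 ± 0.48 (adjusted p = 0.185 with edgeR, 0.0492 with DESeq2's Wald test).

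*Lss* (chr10:76531565-76557139) encodes lanosterol synthase, which closes the sterol rings. It stood at 22.3, 20.8 and 19.7 CPM in WT vehicle livers 1 to 3 and at 26.2, 18.8 and 26.7 CPM in WT APAP livers 1 to 3. KO-labelled livers had 19.2, 22.3 and 18.7 CPM with vehicle and 22.6, 24.3 and 38.3 CPM after APAP. The WT groups overlapped, and the KO-labelled APAP livers were all above the KO-labelled vehicle livers. The log2 fold change was 0.35 ± 0.15 over all livers (edgeR adjusted p = 0.103), 0.20 ± 0.19 in WT and 0.51 ± 0.20 under the KO label (adjusted p = 0.107). Without KO APAP 3, at 38.3 CPM the highest of the 12, it was 0.22 over all livers and 0.24 under the KO label.

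Within each genotype label, 0 of 7 genes passed in WT and 1 of 7, *Sqle*, under the KO label. Over all genes, 2.05% of 15693 were called in WT and 22.6% of 15665 under the KO label, 13% higher. In CPM, the APAP and vehicle livers did not overlap for 2 of 7 genes in WT (*Hmgcs1* and *Fdps*), against 24.9% of all genes tested. Under the KO label this held for 2 of 7 (*Sqle* and *Lss*), against 42.9%. In TPM, the WT groups of *Sqle* did not overlap either. With edgeR, 3 of the 7 had an unadjusted p under 0.05 in WT, and DESeq2's Wald test called 2, *Hmgcs1* and *Sqle*.

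**Figure D3:**
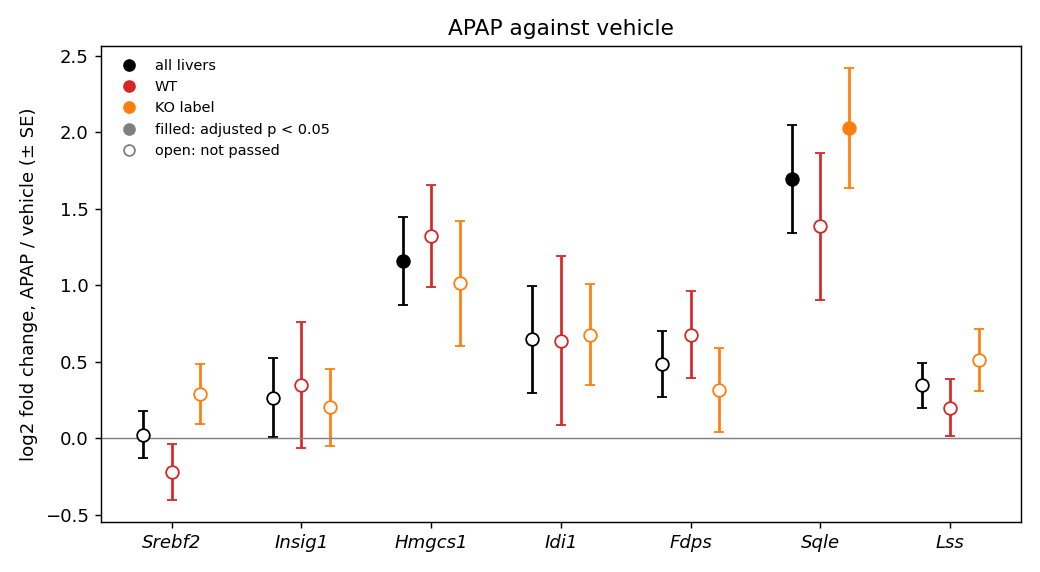
Log2 fold change of APAP against vehicle (points) with its SE (bars) for the 7 genes, over all 12 livers (black), in WT (red) and under the KO label (orange). Filled points passed the adjusted threshold: *Sqle* over all livers and under the KO label, and *Hmgcs1* over all livers.

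Whether the response to APAP differed between the labels was tested as an interaction over 12 livers. None of the 7 genes passed with edgeR, and 0% of 16509 genes did, with 848 genes and 0 of the 7 at an unadjusted p under 0.05. DESeq2's Wald test called 9 genes, 0 of the 7 among them. The interaction (WT effect minus KO-label effect, log2) ran from -0.65 ± 0.69 for *Sqle* to 0.36 ± 0.44 for *Fdps* (0.048 without WT APAP 1), with -0.51 ± 0.28 for *Srebf2*, the smallest unadjusted p of the 7 (0.0956, edgeR adjusted p = 0.872).

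WT against the KO label asked whether these transcripts differed by label at a fixed treatment. After APAP, 0 of 7 genes passed with edgeR and with DESeq2 (background 0.0309% of 16174 genes with edgeR), and 0 of the 7 had an unadjusted p under 0.05. *Srebf2* was the 1 gene of the 7 whose groups did not overlap, with 29.7 to 36.8 CPM in WT and 38.6 to 61.2 CPM under the KO label, and 8.72% of all genes were so separated. Its log2 difference was -0.45 ± 0.22 (edgeR adjusted p = 0.958), and -0.20 without KO APAP 3. With vehicle, 0 of 7 passed with either tool (background 0.0262% of 15262 genes with edgeR), 0 of 7 had an unadjusted p under 0.05, and 0 of 7 had groups that did not overlap, against 14% of all genes. The largest log2 difference with vehicle was -0.38 ± 0.22 for *Hmgcs1* (edgeR adjusted p = 0.741).

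Scored per liver as the mean of the 7 standardized log2 CPM values, in units of SD over the 12 livers, KO APAP 3 was highest at 1.66 and WT APAP 1 second at 1.19. WT APAP 2, at -0.78, was the lowest APAP liver and lay within the range of the vehicle livers. The vehicle livers ran from -0.88 to -0.13 in WT and from -0.94 to -0.09 under the KO label. The APAP livers ran from -0.78 to 1.19 in WT and from -0.22 to 1.66 under the KO label. In CPM the same 2 livers were thus high for most of the 7 genes. *Srebf2* in WT APAP 1 was 0.68 SD below its mean (-0.68), and *Insig1* in KO APAP 3 was 0.41 SD above its own. In TPM, WT APAP 1 was the highest WT APAP liver for *Idi1* and *Insig1* only. It lay between the other WT APAP livers for *Hmgcs1*, *Fdps* and *Sqle*, and was their lowest for *Srebf2* (6.62 TPM) and *Lss* (4.13 TPM). KO APAP 3 was the highest of the 12 in TPM for every gene but *Insig1*.

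**Figure D4:**
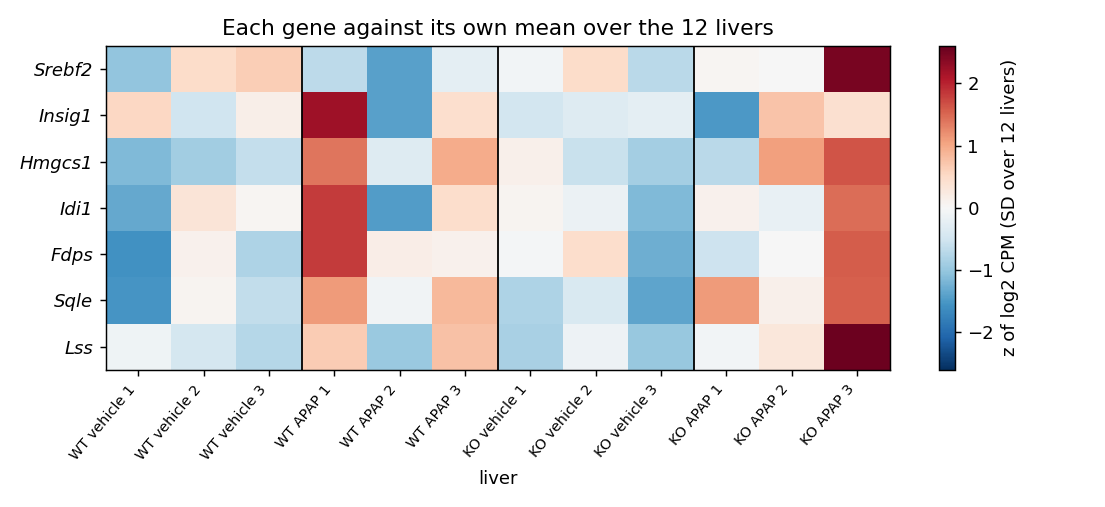
Each gene's log2 CPM in each of the 12 livers as a distance from its own mean, in SD over the 12 livers (red above, blue below). KO APAP 3 and WT APAP 1 are red in most rows. WT APAP 2 is below the mean for every gene but *Fdps*, most strongly for *Srebf2*, *Insig1*, *Idi1* and *Lss*.

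Across the 12 livers, which share sequencing and scaling, the 21 pairs among the 7 genes had Pearson correlations of log2 CPM between 0.06 and 0.80 (median 0.64), with 0 below 0. After subtraction of group means they ran from 0.12 to 0.86 (median 0.66), again with 0 below 0. How strongly other sets of genes correlate within groups was not tested. Without KO APAP 3 and WT APAP 1, and with group means not subtracted, the median over 10 livers was 0.40, with 2 of 21 below 0. *Idi1* and *Fdps* were the closest pair (0.80) and *Srebf2* and *Insig1* the least close (0.06). Among 10905 genes with a mean log2 CPM of at least 1, those with the pattern closest to the mean of the 7, by Pearson's r over the 12 livers, included *Msmo1* (0.943), *Mrap* (0.934), *Xpo6* (0.929), *Gm38481* (0.920), *Cyp51* (0.914), *Eppk1* (0.910), *Cfl1* (0.902) and *Gcc1* (0.900).

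Of 15 other enzyme genes of the pathway, *Ggps1* of a side branch among them, 4 rose with APAP over all livers and 1 fell. This compares with 14% and 11.4% of all genes tested. Their median log2 fold change was 0.21. *Cyp51*, the lanosterol demethylase, ran from 17.5 to 29.3 CPM in WT vehicle livers, from 37.6 to 82.6 in WT APAP livers, from 19.1 to 30.6 in KO-labelled vehicle livers and from 38.8 to 82.7 in KO-labelled APAP livers. Its APAP livers were all above its vehicle livers, and its log2 fold change was 1.13 ± 0.24 (edgeR adjusted p = 0.00485). *Lbr*, which encodes a sterol reductase that is also the lamin B receptor, rose by 0.89 ± 0.19, *Ggps1*, which makes geranylgeranyl diphosphate, by 0.73 ± 0.13, and *Msmo1*, a sterol C4 demethylase, by 1.03 ± 0.33 (adjusted p = 0.0339). *Acat2*, which makes acetoacetyl-CoA, fell by 0.47 on the log2 scale. Without WT APAP 1 *Msmo1* was no longer called and *Fdft1*, squalene synthase, was called lower, which gave 3 higher and 2 lower and a median of 0.036.

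With the 5 enzymes among the 7 genes placed in order beside these 15, 6 of 20 rose and 1 fell, against 14% and 11.4% of all genes tested. Up to the making of squalene, 2 of 9 rose (*Hmgcs1* and *Ggps1*) and 1 fell (*Acat2*). *Ggps1* was counted here, although it lies on the branch to prenylated proteins and not on the way to squalene. From squalene on, 4 of 11 rose (*Sqle*, *Cyp51*, *Lbr* and *Msmo1*) and 0 fell. In WT alone 0 of 20 were called, and under the KO label 5 rose and 2 fell, the risers being *Sqle*, *Lbr*, *Msmo1*, *Ggps1* and *Cyp51*. Those that fell were *Acat2* and, from squalene on, *Sc5d*, a sterol desaturase (adjusted p = 0.0228), which was named after its values were seen. Over all genes, 2.05% were called in WT and 22.6% under the KO label, 13% higher. In WT and under the KO label, log2 fold changes were 1.38 and 2.03 for *Sqle*, 0.91 and 0.89 for *Lbr*, and 1.03 and 1.06 for *Msmo1*. They were 0.74 and 0.74 for *Ggps1* and 1.24 and 1.04 for *Cyp51*.

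**Figure D5:**
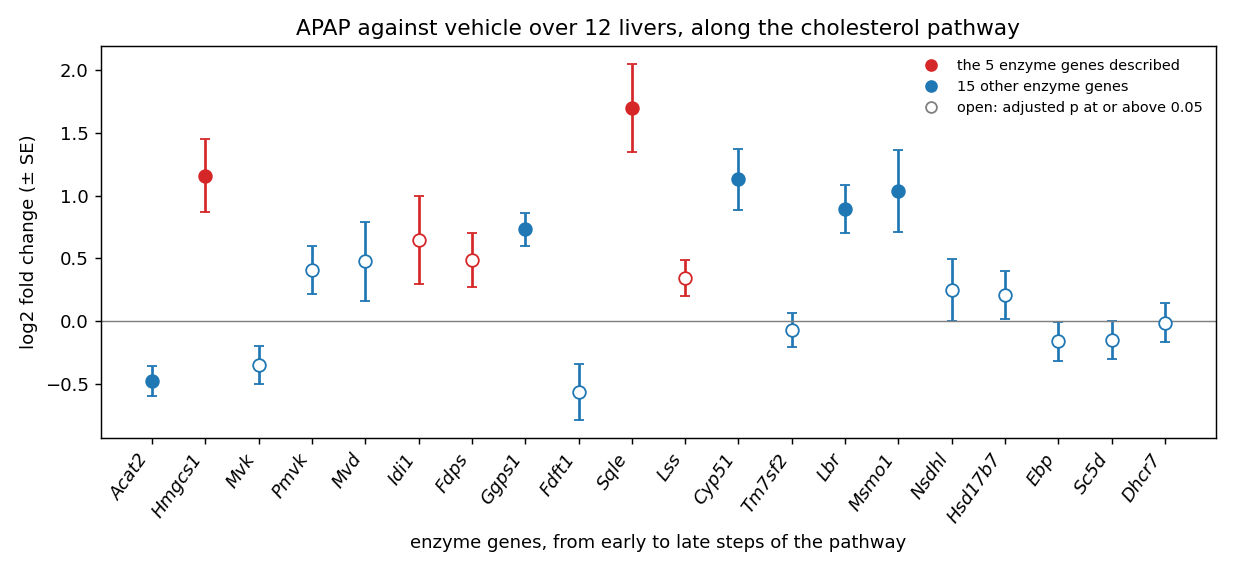
Log2 fold change of APAP against vehicle over 12 livers (points) with its SE (bars) for 20 enzyme genes placed from early to late steps. *Ggps1*, of a side branch, is set between *Fdps* and *Fdft1*. Red points are the 5 enzymes among the genes described and blue points the 15 other enzymes, and filled points passed the adjusted threshold, 6 above 0 and 1 below.

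Of the paralogs, *Insig2*, the second INSIG gene, rose by 1.65 ± 0.37 on the log2 scale (edgeR adjusted p = 0.00578). It stood at 106, 257 and 178 CPM in WT vehicle livers and at 1147, 297 and 749 CPM in WT APAP livers, and at 95.9, 161 and 246 CPM in KO-labelled vehicle livers and at 233, 563 and 432 CPM in KO-labelled APAP livers. The WT groups of *Insig2* did not overlap, and KO APAP 1 lay below KO vehicle 3. *Srebf1*, which encodes SREBP1, changed by 0.21 ± 0.30 (adjusted p = 0.644). *Idi2* had 0 counts in all 12 libraries.

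In 15 genes of SREBP processing and sterol sensing, 2 rose and 1 fell, with a median log2 fold change of -0.07. Of all genes tested, 14% were called higher and 11.4% lower, so these counts were near or below that share. Those that rose were *Insig2* and *Mbtps2*, one of the proteases that release the active factor (0.40 ± 0.11, edgeR adjusted p = 0.0198). *Erlin2*, which takes part in the degradation of endoplasmic reticulum proteins, fell by 0.57 (adjusted p = 0.0237). Without WT APAP 1, 2 rose and 3 fell, with *Stard4* and *Tmem97* added.

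In 16 genes of cholesterol removal and of the liver X receptors, 1 rose and 3 fell, with a median of -0.28. Called in either direction were 4 of 16, near the 25.4% of all genes tested. Without WT APAP 1, 1 rose and 4 fell, with *Lcat* added. *Ch25h*, cholesterol 25-hydroxylase, had 3, 11 and 2 counts in WT vehicle livers, 427, 79 and 73 in WT APAP livers, 4, 4 and 4 in KO-labelled vehicle livers and 79, 49 and 178 in KO-labelled APAP livers. The APAP livers of *Ch25h* were all above the vehicle livers, with a log2 fold change of 4.69 ± 0.67 (edgeR adjusted p = 0.000367). *Abcg5* and *Abcg8*, the pair that forms the transporter of sterols into bile, fell by 0.98 and 1.04 on the log2 scale (adjusted p = 0.000237 and 0.00314). *Abcg5* ran from 76.7 to 136 CPM in vehicle livers and from 46.3 to 57.9 CPM in APAP livers, with no overlap. *Cyp27a1*, a bile acid synthesis enzyme, fell by 0.39 (adjusted p = 0.0163). In the fit of KO-labelled livers, *Ch25h* rose and *Abcg5*, *Abcg8*, *Cyp7a1* and *Cyp7b1* fell, the last 2 named after their values were seen. In WT 0 of 16 were called, and 0 of 16 passed the interaction. Over all genes, 2.05% were called in WT and 22.6% under the KO label.

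Markers of cell types were tested in the same way, where 14% of all genes were called higher and 11.4% lower over all livers. Of 4 neutrophil markers tested, 1 (*Cxcr2*) rose with APAP over all livers, and the summed level of the 5 was 10.7 to 112 CPM in WT APAP livers, 1.16 to 15.97 CPM in WT vehicle livers, 1.36 to 2.40 CPM in KO-labelled vehicle livers and 1.103 to 7.01 CPM in KO-labelled APAP livers. *Ly6g* was at 0 in all 3 KO-labelled vehicle livers and in 5 of the other 9. Of 5 sinusoidal endothelial markers 2 rose (*Lyve1* and *Pecam1*), of 5 stellate cell markers 1 fell (*Lrat*), of 6 hepatocyte markers 1 fell (*Cyp2e1*, which also activates APAP), and 0 of 5 Kupffer cell and 0 of 5 erythroid markers passed. Without WT APAP 1 neither *Cxcr2* nor *Lrat* was called. The summed levels in all vehicle and all APAP livers ranged from 121.5 to 159 and from 122.8 to 202 CPM for endothelial markers, from 130 to 231 and from 155 to 315 CPM for stellate cell markers, and from 77.5 to 171 and from 63.8 to 162 CPM for Kupffer cell markers. For erythroid markers they ranged from 333 to 749 and from 253 to 17360 CPM, and for hepatocyte markers from 60640 to 87670 and from 67230 to 118900 CPM. In CPM, WT APAP 1, second highest for the 7 genes, was highest of the 12 for neutrophil, erythroid, stellate cell, endothelial and hepatocyte markers. KO APAP 3, highest for the 7 genes, was within the range of the other livers for neutrophil, erythroid, stellate cell, endothelial and hepatocyte markers. The part of these markers in the results was not tested.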

How the data were processed

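Poly-A RNA of 12 livers, 3 in each of 4 groups by the labels, was sequenced as paired reads on an Illumina NovaSeq. The submitters' processing notes name FastQC 0.11.7, Trimmomatic 0.38, HISAT2 2.1.0, Bowtie2 2.3.4.1, StringTie 2.1.3b and the mm10 (GRCm38) build. The authors deposited whole-number read counts per gene without normalization (49737950 to 69566079 per liver), beside 2 scaled measures. As deposited, TPM relates reads to transcript length at a fixed library sum. FPKM, also deposited but not used here, relates them to length and fragment number.

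Counts were scaled by TMM, filtered by filterByExpr and tested with edgeR 4.0.16 (glmQLFit, glmQLFTest) in R 4.3.3, p-values being adjusted over all genes tested by Benjamini-Hochberg at a threshold of 0.05. The SE is the log2 fold change divided by the square root of F. Log2 CPM for correlations used a prior count of 2. Each pairwise comparison used its 6 livers, and the pooled comparison and the interaction used 12. The statistics were tested on simulated data. Alternatives were a Wald test or size factors from DESeq2 1.42.0, fits without a filter or with 10 or more counts in every sample, 1 fit of all 12 livers, a replicate block, limma 3.58.1 on log2 TPM after quantile normalization, the kind of scale the study used (pseudocount 1 or 0.1), and each library left out. The sum of *Idi1* and *Gm35570*, the pathway lists without WT APAP 1 and the newer quasi-likelihood method of edgeR were chosen after seeing the data.

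The 7 genes and the lists were chosen with earlier results of these data known. All 7 are named, with their paralogs, at most 3 genes per direction of each pathway list by the smallest p among those called over all livers, and at most 8 genes of closest pattern. Genes outside this rule are *Msmo1* among the lists, the genes that changed their call without WT APAP 1, and those called under the KO label alone. Some genes of the lists, of the paralogs and among the closest are not reported here, and the list counts leave them out. The labels name separate livers. No pairing by replicate number was seen: 1 of 18 pairs of livers with the same number had deviations correlated above 0.1, at 0.107. A pair with different numbers, WT APAP 2 and KO APAP 1, reached 0.316. With 3 livers per group this check cannot exclude a pairing. Promoters came from RefSeq (GRCm38.p6), and amino acid sequences were not used here.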

Additional observations from a re-analysis of the deposited data

Results flagged for a closer look

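*Srebf2* was picked out because its 3 WT APAP livers all lay below the WT vehicle mean of 39.3 CPM (29.7 to 36.8 CPM) while its 3 KO-labelled APAP livers all lay above the KO-labelled vehicle mean of 38.1 CPM (38.6 to 61.2 CPM). The log2 interaction was -0.51 ± 0.28 (SE, n = 12 livers), which did not pass the edgeR test (p = 0.0956, adjusted p = 0.872, and 0.829 to 1 over the alternatives that keep all libraries). 2 of the 3 KO-labelled APAP livers were within 1 CPM of that mean, and without KO APAP 3 the interaction was -0.24. The groups hold 3 livers each, too few to look for single outlying livers by the test used for larger groups.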

How the results depend on the processing

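Over the 7 genes, the number called was 2 over all livers under each alternative that kept all libraries, and *Hmgcs1* and *Sqle* were the genes called each time. With DESeq2's Wald test 2 were called in WT, against 0 with edgeR, and 2 under the KO label, against 1, and the cause was not tested. With a library left out the number called ran from 2 to 4 over all livers (4 without WT APAP 2), from 0 to 1 in WT (1, *Hmgcs1*, without WT APAP 2) and from 1 to 2 under the KO label (2 without KO APAP 1), and it was 0 throughout for WT against the KO label and for the interaction. The replicate block left 2, 0, 1, 0, 0 and 0 genes called in the 6 comparisons as in the fits without it, and over all genes it called 62 rather than 322 in WT and 2761 rather than 3538 under the KO label. Over all genes in WT, DESeq2's Wald test called 1413 and 1 fit of all 12 livers 1523, against 322, and with a library left out 41 to 442 were called. Under the KO label, 1 fit of all 12 livers called 2249 genes and the fits with a library left out from 1995 on, against 3538. For WT against the KO label, 5 genes after APAP and 4 with vehicle became 29 and 137 with DESeq2's Wald test, 0 and 0 in 1 fit of all livers, 1 and 0 with the block, and 1 to 7 and 0 to 16 with a library left out. At least 10 counts in every sample left 1 gene after APAP. The interaction gave 9 genes with DESeq2 and 0 to 2 with a library left out, against 0.

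Values that changed sign belonged to genes that did not pass. On quantile-normalized TPM with limma, *Srebf2* over all livers was -0.027 and -0.031 (log2, pseudocounts 1 and 0.1), *Idi1* in WT against the KO label after APAP was -0.13 and -0.16, and -0.14 with the replicate block, and the *Insig1* interaction was -0.00086 and -0.0013. With a library left out, the log2 fold change with APAP ran from -0.10 to 0.10 for *Srebf2* over all livers, from -0.21 to 0.67 for *Insig1* and from -0.055 to 1.03 for *Idi1* in WT, and from -0.0098 to 0.47 for *Insig1* and from -0.013 to 0.49 for *Fdps* under the KO label. For WT against the KO label after APAP it ran from -0.19 to 0.72 for *Insig1*, from -0.42 to 0.34 for *Hmgcs1*, from -0.67 to 0.016 for *Sqle*, from -0.62 to 0.52 for *Idi1*, from -0.14 to 0.49 for *Fdps* and from -0.37 to 0.039 for *Lss*. With vehicle it ran from -0.042 to 0.17 for *Srebf2*, from -0.24 to 0.62 for *Sqle* and from -0.14 to 0.39 for *Idi1*. The interaction ran from -0.43 to 0.50 for *Insig1*, from -0.047 to 0.72 for *Hmgcs1* and from -0.74 to 0.42 for *Idi1*.

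Whether depth or the spread between livers limited these comparisons more was not tested, and the smallest count of any of the 7 genes in a library was 271, for *Sqle*.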
